A study of Mus musculus with 26 samples.

Results

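The ligands of the EGF family and their ErbB receptors were followed across 26 mouse skin cell lines through 9 genes, 6 ligands (Ereg, Hbegf, Tgfa, Btc, Epgn and Nrg1) and 3 receptors (Egfr, Erbb2 and Erbb3). They were taken by gene symbol from the 18193 genes that had a probe set naming a single gene, with the probe set of the highest mean over all arrays standing for each gene. All 9 passed the filter on low values, a level above the array's median on 2 or more arrays, which left 12641 genes tested. EGF family ligands are made as membrane-bound precursors that proteases release from the cell surface. Ereg, Hbegf, Tgfa, Btc and Epgn encode ligands of the EGF receptor, Hbegf, Btc and Ereg products also bind ERBB4, and Nrg1 encodes neuregulin 1, a ligand of ERBB3 and ERBB4. Bound receptors pair with each other and signal through Ras and ERK and through PI3 kinase. ERBB2 has no known ligand of its own, ERBB3 has a weak kinase, and in skin the family is known for driving keratinocyte growth and wound repair.

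Each line was measured on 1 Affymetrix M430 array from RNA of log-phase cultures in serum, and values are log2 RMA values, on which 1 unit is a fold change of 2. The spindle carcinoma lines, from squamous carcinomas of elongated cell form, were A5, H11, CarB, CarC, D3, D3DP and MSN2 (n = 7). The non-spindle carcinoma lines (n = 12) were B9, B9ras, B9rassmad, E4, PDV and PDVC57, together with SN161 from a Spretus/NIH cross and MSC11B, MSC12, MSC7A, MSCP1 and MSCP5 from Spretus/CBA crosses. The immortalized keratinocyte lines were C5N and NK (n = 2), NK being from a p53 null mouse. P6 came from a papilloma. B9Smad was labelled spindle by cell type but not by its flag, 2945CA and MSCb1 (Spretus/CBA) had no stated spindle state, and 1 more keratinocyte-labelled line lacked the keratinocyte flag. These lines are described singly. Further genotypes, strains and tumour-inducing agents are not described here, and no label names a second culture of a line. The p-values therefore measure the spread between lines, some of which share a name family.

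The medians of the arrays lay between 5.04 and 5.15, and a level near or below that is at the low end of the scale. The closest pair of arrays, A5 and H11, correlated at r = 0.9928 over all probe sets with an SD of the differences of 0.287, so no 2 arrays were the same. Cdh1, which encodes E-cadherin and defines epithelial cells, was below the array median in 11 lines, all 7 spindle lines together with MSC12, MSC11B, MSC7A and 2945CA. The mean level of 10 epithelial markers was 4.55 to 6.62 in spindle lines, 4.25 to 12.27 in non-spindle lines, and 10.21 in NK and 11.14 in C5N. That of 12 mesenchymal and fibroblast markers was 7.41 to 10.81 in spindle lines, 4.95 to 10.68 in non-spindle lines, and 4.60 in NK and 5.03 in C5N. The 3 non-spindle lines with low Cdh1 stood apart from their group, with epithelial means of 4.25 to 5.06, against 9.26 to 12.27 in the other 9. The mean level of 10 immune and endothelial markers was 4.27 to 4.87 in all 26 lines. Ptprc, Itgam and Adgre1 did not exceed the array median in any line. The others (Cd3e, Cd68, Lyz2, Pecam1, Cdh5, Kdr and Tek) each exceeded it in at least 1 line. The part that these marker differences play in the results below was not tested, and in cultures of bulk RNA fewer cells of a type and less RNA per cell cannot be told apart.

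Upstream sequences are shown for Epgn, which varied most among the 9 genes (SD 2.51 over 26 lines), and for Tgfa and Erbb2, the pair with the highest correlation among the 9 over all 26 lines (r = 0.90). RefSeq promoter entries of GRCm38.p6 were matched for 5 of the 9 genes (Tgfa, Btc, Epgn, Egfr and Erbb2). The 250 bases before the annotated start are given 5′ to 3′ on the gene's strand, and capitals mark CAGGTG, the E-box form bound by Zeb and Snail repressors, and TATAAA, the TATA box core.
Epgn, chr5:91027267-91027516, plus strand: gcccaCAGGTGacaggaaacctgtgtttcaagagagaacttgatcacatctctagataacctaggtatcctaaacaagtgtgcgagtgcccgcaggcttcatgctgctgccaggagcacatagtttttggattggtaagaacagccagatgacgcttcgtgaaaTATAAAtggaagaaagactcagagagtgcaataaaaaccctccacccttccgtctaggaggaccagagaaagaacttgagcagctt
Tgfa, chr6:86194972-86195221, plus strand: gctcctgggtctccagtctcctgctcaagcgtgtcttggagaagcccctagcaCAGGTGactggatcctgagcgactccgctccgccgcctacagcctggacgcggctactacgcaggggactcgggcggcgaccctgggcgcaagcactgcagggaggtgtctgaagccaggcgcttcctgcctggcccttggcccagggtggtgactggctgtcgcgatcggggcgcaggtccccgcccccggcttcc
Erbb2, chr11:98412234-98412483, plus strand: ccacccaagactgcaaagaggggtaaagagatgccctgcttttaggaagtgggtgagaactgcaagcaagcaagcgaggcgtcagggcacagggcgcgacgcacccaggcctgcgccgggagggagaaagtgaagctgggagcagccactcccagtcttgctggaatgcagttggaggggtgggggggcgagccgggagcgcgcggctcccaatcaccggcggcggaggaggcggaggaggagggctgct
CAGGTG, searched on both strands, stood in the windows of Epgn (bases -245 to -240 from the start), Tgfa (-197 to -192) and Btc (-110 to -105), 3 of 5, and in 17.1% of 27025 promoter windows of the same length. TATAAA, searched on the gene's strand, was found for Epgn (-86 to -81) alone of the 5 and in 8.12% of all windows. TGANTCA, the AP-1 motif, was in 0 of 5 windows and in 6.87% of all. A match of these letters is a description of the window. In the same annotation 4 genes of the family lie in a row on chromosome 5, with Epgn at chr5:91027517-91035212, Ereg at chr5:91074617-91093649, Areg at chr5:91139599-91148432 and Btc at chr5:91357261-91402994.

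The first comparison asked how the family differs between spindle and non-spindle carcinoma lines. Of the 9 genes, 8 were on average lower in spindle lines, with log2 differences of -2.83 to -0.25, and Btc was 0.23 higher. None of the 9 passed limma's test at an adjusted p under 0.05, a threshold that 0.0633% of all genes tested passed, while 5 of the 9 (Hbegf, Tgfa, Nrg1, Erbb2 and Erbb3) had an unadjusted p under 0.05, against 20.7% of all genes. The median log2 difference of the 9 was -1.03, and that of all genes tested was 0.04. The ranges of the spindle and non-spindle lines overlapped for every one of the 9. The other comparisons set non-spindle and spindle lines against the same 2 keratinocyte lines, so the results of both rest on C5N and NK. Separation of carcinoma lines from both keratinocyte lines is given below as a description only. The share of all genes so separated was not counted, and with 2 lines separation comes easily. Against keratinocytes 1 of 9 was called in non-spindle lines, with 2.02% of all genes called in either direction and 0.886% called higher. In spindle lines 3 of 9 were called, 1 higher and 2 lower, with 5.35% of all genes called, 2.4% higher and 2.95% lower. Unadjusted p-values under 0.05 were found for 4 of 9 and 5 of 9 in these comparisons, against 12% and 20.7% of all genes.

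**Figure D1:**
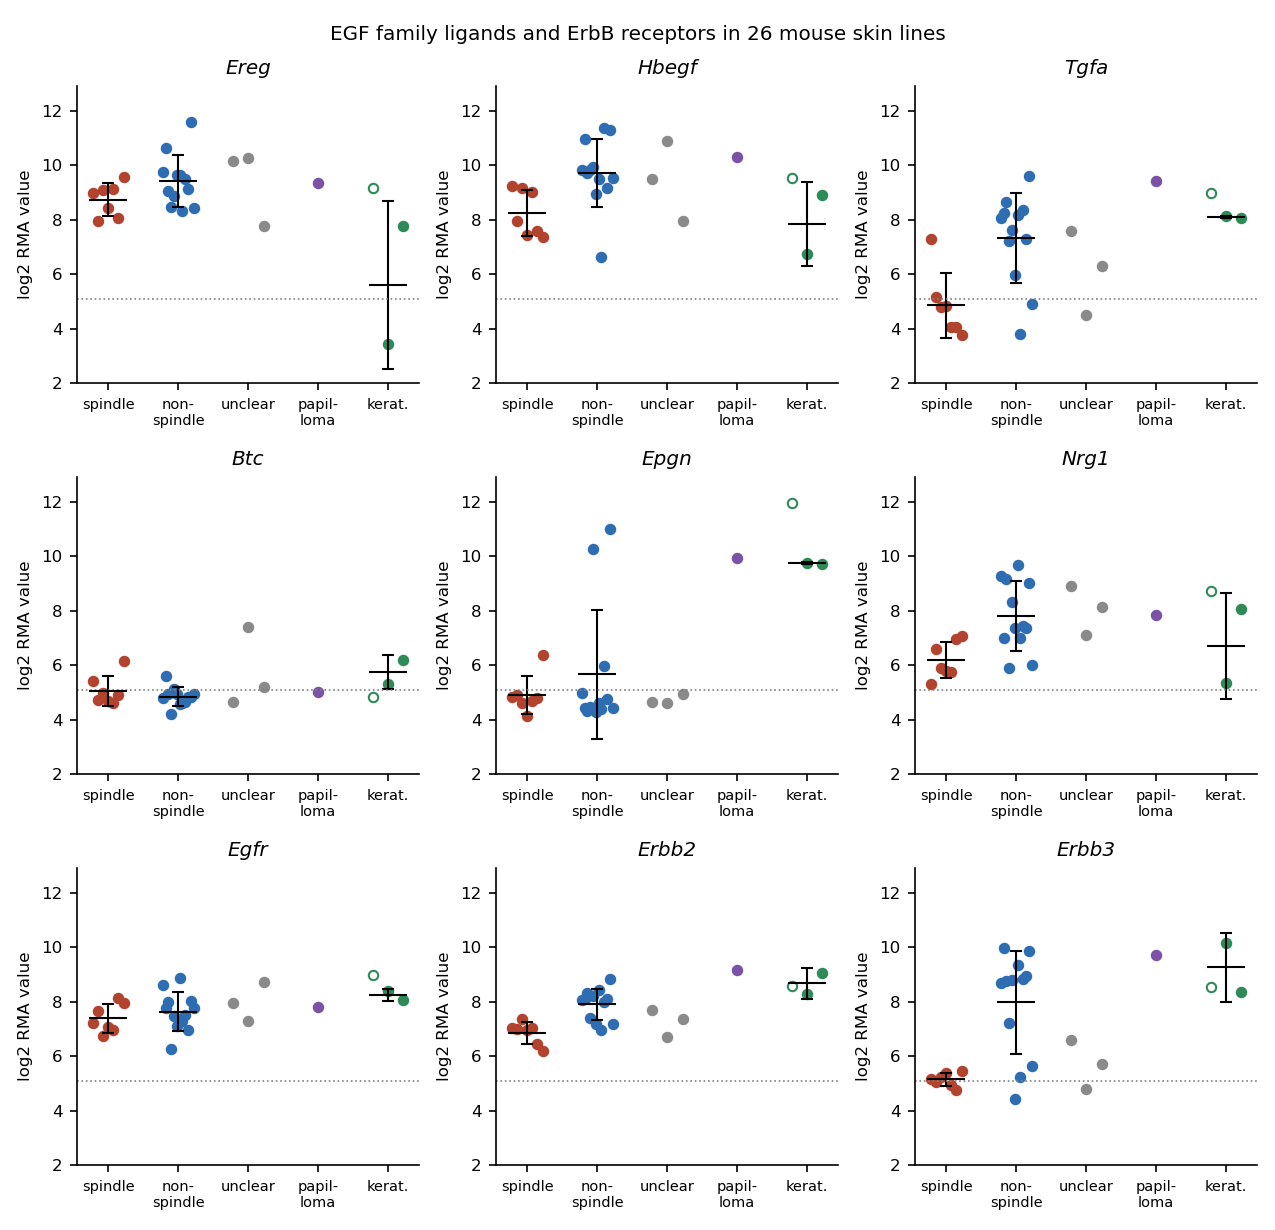
Log2 RMA value of each of the 9 genes in each of 26 lines, by group from left to right: spindle, non-spindle, spindle state unclear, papilloma and keratinocyte. Lines and bars give the group mean and SD, the open circle is the keratinocyte-labelled line whose flag conflicts, and the dotted line is the mean array median. Epgn sits near the dotted line in most carcinoma lines and between 9.71 and 11.93 in 6 lines.

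Epiregulin (Ereg) was the ligand called against keratinocytes. Its levels were 7.93, 8.97 and 9.57 (lowest, median and highest) in spindle lines, 8.30, 9.30 and 11.57 in non-spindle lines, and 3.43 in C5N and 7.77 in NK. Every carcinoma line of both groups thus lay above both keratinocyte lines, and C5N was the 1 array of 26 on which Ereg was below the array median. Ereg was 3.81 higher on the log2 scale in non-spindle than in keratinocyte lines (SE 0.80, limma adjusted p = 0.0124), a 14-fold rise, and 3.13 higher in spindle than in keratinocyte lines (SE 0.84, limma adjusted p = 0.0344), a rise of 8.77-fold. The size of both rested on C5N, without which the differences were 1.64 (limma adjusted p = 0.59) and 0.96 (limma adjusted p = 0.644), where NK alone stood for keratinocytes and its spread was taken from the carcinoma groups. The keratinocyte-labelled line with the conflicting flag had an Ereg level of 9.16, among the carcinoma lines, and with the unclear lines placed by their cell type label neither difference was called (2.56, adjusted p = 0.0996, and 2.12, adjusted p = 0.132, both from limma). The spindle call was also lost without A5, H11 or CarB, at limma adjusted p-values of 0.0501 to 0.0559. Spindle lines averaged 8.73 ± 0.61 (SD, n = 7) and non-spindle lines 9.41 ± 0.95 (SD, n = 12), a log2 difference of -0.67 (SE 0.50, limma adjusted p = 0.452).

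Heparin-binding EGF-like growth factor (Hbegf), made by keratinocytes at wound edges, was at 7.37, 7.95 and 9.23 in spindle lines (lowest, median and highest), 6.61, 9.77 and 11.35 in non-spindle lines, and 6.74 in C5N and 8.91 in NK. The highest levels were in PDVC57, B9 (11.29) and SN161 (10.94), and the lowest non-spindle level was in MSC11B. The spindle mean was 1.47 lower on the log2 scale than the non-spindle mean (SE 0.52, limma adjusted p = 0.14). Without MSC11B the difference was -1.75 and was called (limma adjusted p = 0.0302). Against keratinocyte lines the log2 difference was 0.42 in spindle lines (SE 0.88, limma adjusted p = 0.835) and 1.89 in non-spindle lines (SE 0.84, limma adjusted p = 0.363). Both differences were smaller than that between NK and C5N, although 11 of 12 non-spindle lines lay above both. The second Hbegf probe set followed the first at r = 0.98 over 26 lines.

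Transforming growth factor alpha (Tgfa), an autocrine ligand of keratinocytes, was at 3.77, 4.78 and 7.30 in spindle lines (lowest, median and highest), 3.81, 7.85 and 9.61 in non-spindle lines, and 8.13 in C5N and 8.07 in NK. Among spindle lines D3 had the highest level and the next, D3DP, was at 5.15, while among non-spindle lines MSC11B, MSC7A (4.91) and MSC12 (5.98) lay below the other 9, which began at 7.22. Tgfa was 2.48 lower in spindle than in non-spindle lines on the log2 scale (SE 0.66, limma adjusted p = 0.0876) and 3.25 lower in spindle than in keratinocyte lines (SE 1.12, limma adjusted p = 0.097), where all 7 spindle lines lay below both keratinocyte lines. The first of these was called without MSC11B (-2.80, limma adjusted p = 0.0154) or without MSC7A (-2.70, limma adjusted p = 0.0435). Non-spindle lines differed from keratinocyte lines by -0.77 (SE 1.07, limma adjusted p = 0.867). Of the other Tgfa probe sets, one followed the chosen one at r = 0.68 over 26 lines, but gave -0.26 between spindle and non-spindle lines (SE 0.17, limma adjusted p = 0.367) and -0.37 between spindle and keratinocyte lines (SE 0.28, limma adjusted p = 0.496). The last did so at r = 0.09 and stayed between 5.46 and 6.23, so the values above rest on 1 probe set.

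Epigen (Epgn) was high in some lines and low in the rest. It was at 4.14, 4.79 and 6.38 in spindle lines (lowest, median and highest), 4.28, 4.53 and 10.99 in non-spindle lines, and 9.76 in C5N and 9.71 in NK. The lines at high levels were B9 and MSCP5 (10.25) among non-spindle carcinomas, the papilloma line P6 (9.92) and all 3 keratinocyte-labelled lines, of which the one with the conflicting flag had the highest level of all, 11.93. CarB and PDVC57 (5.97) were the only other lines above their array median. The log2 difference was -4.83 between spindle and keratinocyte lines, whose ranges did not overlap (SE 1.44, limma adjusted p = 0.0548), and -4.08 between non-spindle and keratinocyte lines (SE 1.37, limma adjusted p = 0.165). The non-spindle difference was called without MSCP5 (-4.50, limma adjusted p = 0.0361), without B9 (-4.56, limma adjusted p = 0.019) or with the unclear lines placed by label (-4.94, limma adjusted p = 0.0168). MSCP5 and B9 had the highest Epgn levels of the non-spindle lines, so leaving out either widened the difference by construction. Placement by label also brought the spindle difference from keratinocytes past the threshold (-5.60, limma adjusted p = 0.00685). Spindle and non-spindle lines differed by -0.75 (SE 0.86, limma adjusted p = 0.65). Ereg, its neighbour on chromosome 5, did not follow this division, being lowest in C5N where Epgn was high, and the pair correlated at r = -0.13 over the 26 lines, which fall into separate clusters by Epgn. Within the 12 non-spindle lines r was 0.46, with B9 highest for both genes, and within the 15 lines without low Cdh1 it was -0.19.

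**Figure D2:**
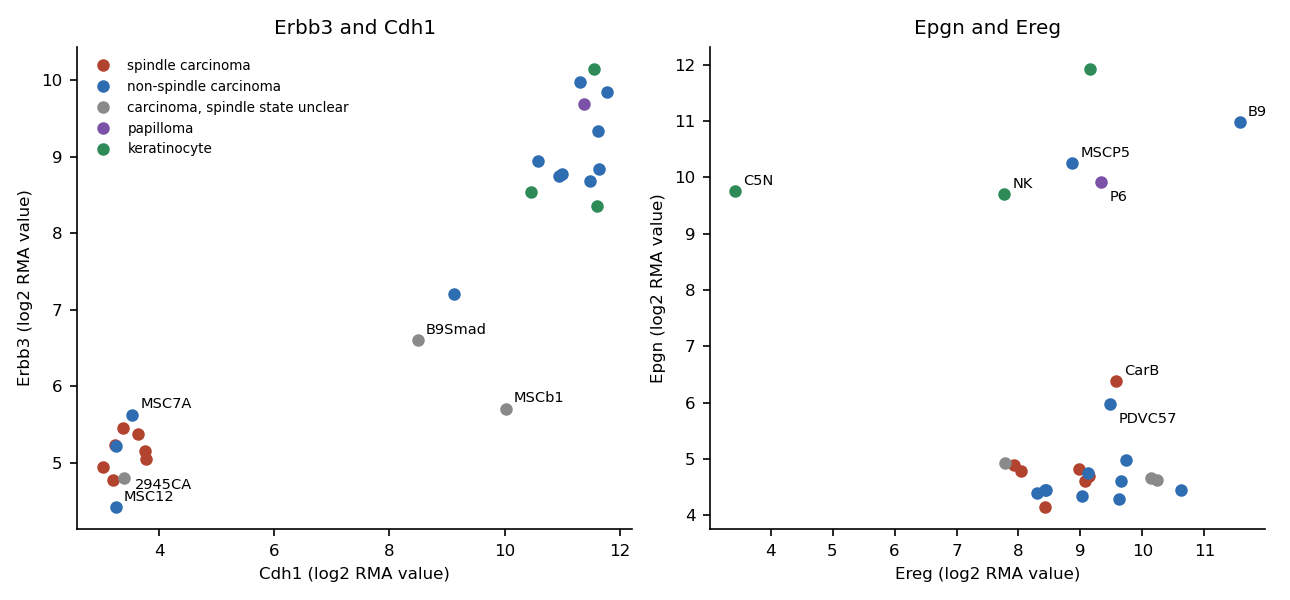
Erbb3 against Cdh1 (left) and Epgn against Ereg (right), as log2 RMA values, with 1 point per line coloured by group. Erbb3 is at 4.42 to 5.63 in the lines with low Cdh1, and the lines with high Epgn span Ereg levels from 3.43 to 11.57.

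Betacellulin (Btc) was near the array median nearly throughout. It was at 4.59, 4.90 and 6.14 in spindle lines (lowest, median and highest), 4.19, 4.82 and 5.61 in non-spindle lines, and 5.30 in C5N and 6.19 in NK, and it exceeded the array median on 8 of 26 arrays. Its highest level, 7.41, was in 2945CA, a line with no stated spindle state, where the other Btc probe set was also highest (6.18) and the probe sets followed each other at r = 0.92. Log2 differences were 0.23 between spindle and non-spindle lines (SE 0.21, limma adjusted p = 0.556), -0.92 between non-spindle and keratinocyte lines (SE 0.33, limma adjusted p = 0.216) and -0.69 between spindle and keratinocyte lines (SE 0.35, limma adjusted p = 0.272).

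Neuregulin 1 (Nrg1) was at 5.32, 5.89 and 7.07 in spindle lines (lowest, median and highest), 5.88, 7.41 and 9.68 in non-spindle lines, and 5.33 in C5N and 8.07 in NK. MSCP1, PDV (9.28), B9ras (9.14) and B9 (9.01) were at the top, and 3 spindle lines lay below every non-spindle line. Spindle lines averaged 1.60 less than non-spindle lines on the log2 scale (SE 0.53, limma adjusted p = 0.126). Against keratinocyte lines the log2 difference was -0.51 in spindle lines (SE 0.89, limma adjusted p = 0.793) and 1.09 in non-spindle lines (SE 0.85, limma adjusted p = 0.715), and the keratinocyte lines themselves lay far apart.

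On the chosen probe sets, Erbb3 covered the widest range of the receptors. It was at 4.77, 5.16 and 5.46 in spindle lines (lowest, median and highest), 4.42, 8.77 and 9.98 in non-spindle lines, and 10.15 in C5N and 8.36 in NK. The spindle lines were all close to the array median and below both keratinocyte lines, and among non-spindle lines MSC12, MSC11B (5.22) and MSC7A (5.63) were at spindle levels while the other 9 began at 7.21. Erbb3 fell by 4.11 on the log2 scale in spindle relative to keratinocyte lines (SE 1.15, limma adjusted p = 0.0421). This call was lost without any 1 of the 9 lines compared, at adjusted p-values of 0.0546 to 0.32 in limma, while the difference stayed between -5.01 and -3.22. The spindle difference from non-spindle lines was -2.83 (SE 0.68, limma adjusted p = 0.0728), and it was called without MSC12 (-3.15), MSC11B (-3.08) or MSC7A (-3.04), at limma adjusted p-values of 0.0169, 0.0186 and 0.0309. Non-spindle lines differed from keratinocyte lines by -1.29 (SE 1.10, limma adjusted p = 0.755). A second Erbb3 probe set followed the first at r = 0.69 and gave -0.93 between spindle and keratinocyte lines (SE 0.36, limma adjusted p = 0.145).

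Erbb2 was at 6.18, 7.0 and 7.37 in spindle lines (lowest, median and highest), 6.95, 8.08 and 8.83 in non-spindle lines, and 8.27 in C5N and 9.06 in NK. All 7 spindle lines lay below both keratinocyte lines, and 2 of them, CarB and CarC (6.43), lay below every non-spindle line. Erbb2 fell by 1.80 on the log2 scale in spindle relative to keratinocyte lines (SE 0.41, limma adjusted p = 0.0154), a drop of 3.49-fold. Without NK the difference was -1.41 and was not called (limma adjusted p = 0.253). Spindle lines were 1.03 lower than non-spindle lines (SE 0.25, limma adjusted p = 0.0704), a difference called without MSC12 (-1.10), MSC11B (-1.12) or MSC7A (-1.10), at limma adjusted p-values of 0.0329, 0.0186 and 0.033. Non-spindle lines differed from keratinocyte lines by -0.77 (SE 0.39, limma adjusted p = 0.46). The papilloma line P6 had the highest Erbb2 level of all, 9.14.

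Egfr varied least among the receptors on its chosen probe set, at 6.75, 7.21 and 8.12 in spindle lines (lowest, median and highest), 6.26, 7.63 and 8.85 in non-spindle lines, and 8.38 in C5N and 8.07 in NK. Log2 differences were -0.25 between spindle and non-spindle lines (SE 0.29, limma adjusted p = 0.665), -0.60 between non-spindle and keratinocyte lines (SE 0.46, limma adjusted p = 0.715) and -0.84 between spindle and keratinocyte lines (SE 0.49, limma adjusted p = 0.344). Of the 6 other Egfr probe sets, 3 followed the chosen one at r = 0.87, 0.87 and 0.95 over 26 lines, and 3 at r = -0.41 to 0.33. On the probe set of largest variance A5 was at 3.42, H11 at 4.07, B9rassmad at 4.92 and E4 at 5.14, against 9.71 in C5N and 9.21 in NK. These 4 lines were the lowest on the chosen probe set too, but over a narrower span. On the probe set of largest variance spindle lines differed from non-spindle lines by -1.22 (SE 0.74, limma adjusted p = 0.353) and from keratinocyte lines by -3.14 (SE 1.25, limma adjusted p = 0.163), so the size of the Egfr differences depended on the probe set and no call was made by either.

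**Figure D3:**
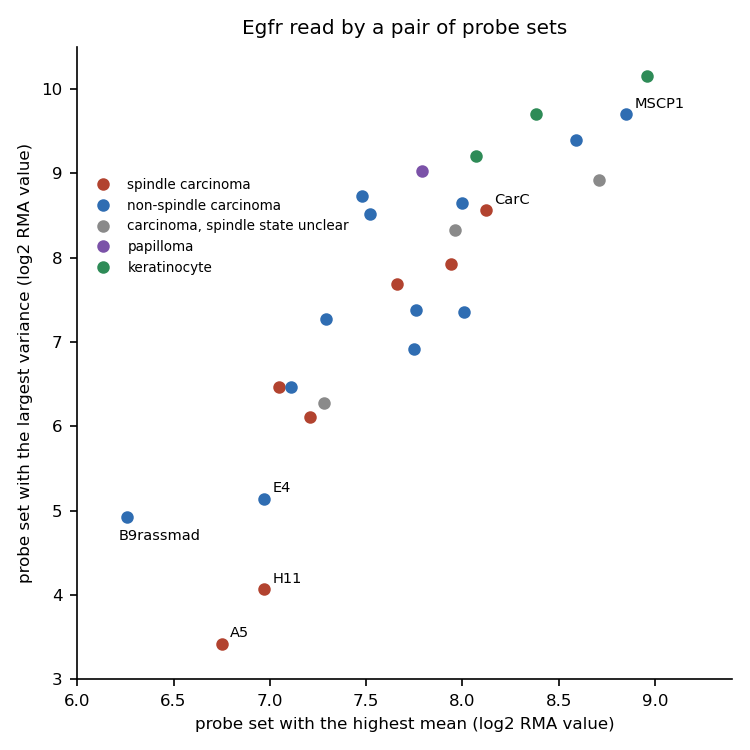
Egfr in 26 lines on the probe set with the largest variance (y axis) against the one with the highest mean (x axis), both as log2 RMA values on axes of different span and coloured by group. A5, H11, B9rassmad and E4 are lowest on both, at 3.42 to 5.14 on the y axis.

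**Figure D4:**
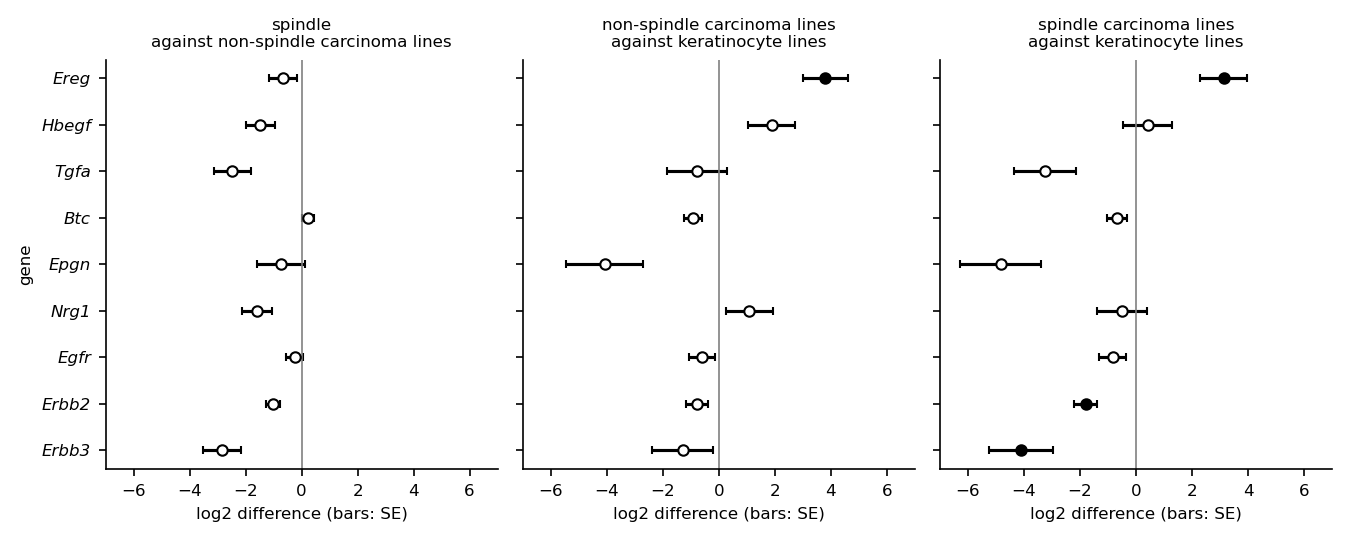
Log2 difference of each gene (points) with limma's SE (bars) for spindle against non-spindle, non-spindle against keratinocyte and spindle against keratinocyte lines, and filled points for an adjusted p under 0.05. Filled points are Ereg in both comparisons with keratinocytes, and Erbb2 and Erbb3 in spindle against keratinocyte lines.

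The levels are also given by Cdh1, whose values fell into separate clusters, as ranges with no test because Cdh1 is itself measured. Erbb3 was at 4.42 to 5.63 in the 11 lines with low Cdh1 and at 5.71 to 10.15 in the other 15, with no overlap. Of all genes tested, 0.332% were likewise lower in the lines with low Cdh1 with no overlap. Genes that were higher there with no overlap were not counted. Tgfa was at 3.77 to 7.30 in the lines with low Cdh1, with a median of 4.78, and at 6.28 to 9.61 in the others, with a median of 8.13. Erbb2 was at 6.18 to 7.37, with a median of 7.0, against 7.37 to 9.14, with a median of 8.22. For the last pair of genes 10 of the 11 lines with low Cdh1 lay below all others, the exception being D3 for Tgfa and A5 for Erbb2. Ereg (7.93 to 10.24 against 3.43 to 11.57), Btc (4.59 to 7.41 against 4.19 to 6.19) and Egfr (6.75 to 8.12 against 6.26 to 8.96) overlapped broadly. The Egfr medians were 7.28 against 8.0, and 6.47 against 8.73 on the probe set of largest variance. Hbegf, Nrg1 and Epgn also overlapped, with medians of 8.95 against 9.72, 6.59 against 8.14 and 4.62 against 4.98. MSCb1, a line of unstated spindle state with Cdh1 at 10.02, had the lowest Tgfa (6.28), Erbb2 (7.37) and Erbb3 (5.71) levels of the 15 lines without low Cdh1, although its Egfr level of 8.71 was among the highest.

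Within the non-spindle lines 3 of the 9 genes lay lower in the lines with low Cdh1 with no overlap of ranges, as did 3.73% of all genes tested. MSC12, MSC11B and MSC7A had Tgfa levels of 3.81 to 5.98, against 7.22 to 9.61 in the other 9. Their Erbb2 levels were 6.95 to 7.17, against 7.39 to 8.83, and their Erbb3 levels 4.42 to 5.63, against 7.21 to 9.98. When these 3 lines, chosen with earlier results known, were left out, 5 of the 9 genes were called lower in spindle lines: Hbegf (-1.92), Tgfa (-3.28), Nrg1 (-1.93), Erbb2 (-1.30) and Erbb3 (-3.79), at limma adjusted p-values of 0.00802, 0.000156, 0.0249, 0.000703 and 1.09e-06. In that fit 1954 of the 12641 genes tested were called in all. The lines left out lay below the other 9 for Tgfa, Erbb2 and Erbb3, so leaving them out widened those differences by construction. The p-values of this fit are therefore a description and no separate test.

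**Figure D5:**
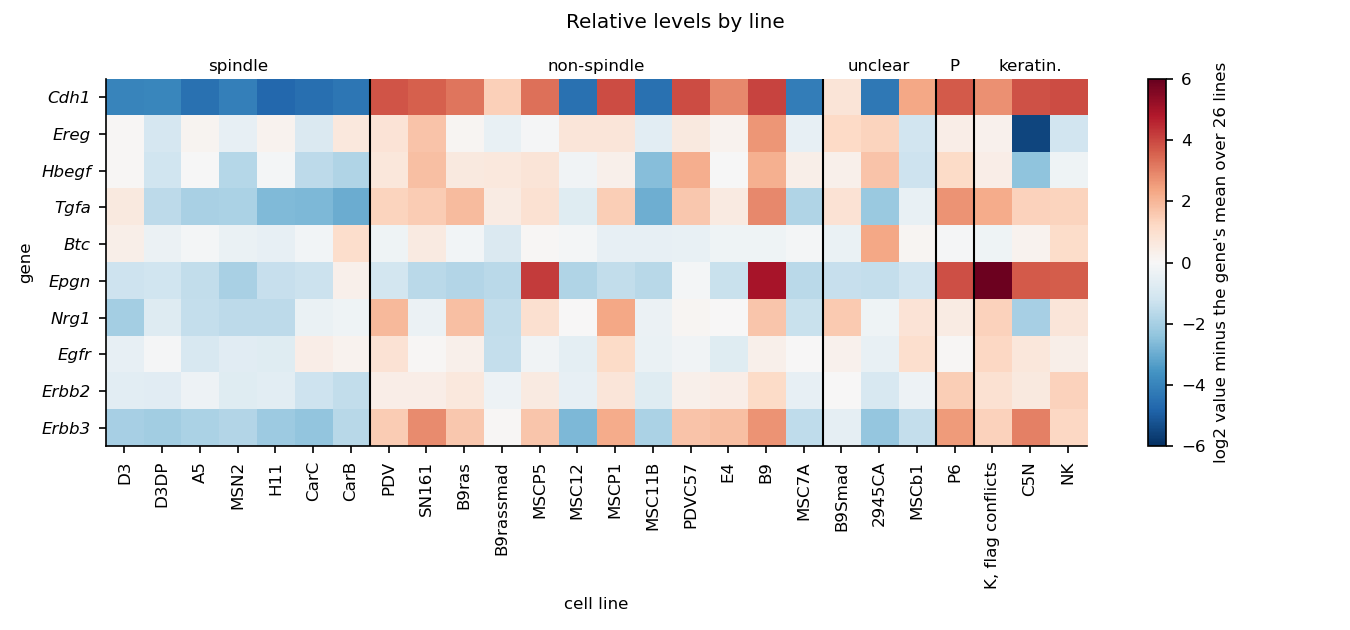
Log2 value minus the gene's mean over 26 lines, for Cdh1 (top row) and the 9 genes, with lines in columns by group (unclear: spindle state conflicting or not stated, P: papilloma). Erbb2 and Erbb3 are below their means in the columns where Cdh1 is low, as is Tgfa except in D3 (7.30), and Epgn is high in 6 columns.

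Across the 26 lines, Erbb3, Tgfa and Erbb2 correlated with Cdh1 at r = 0.93, 0.90 and 0.88. Lines fall into separate clusters by Cdh1, and within the 15 lines without low Cdh1 the values were 0.78, 0.55 and 0.66. Tgfa and Erbb2 correlated with each other at r = 0.90 over 26 lines and 0.80 within those 15. Ereg and Hbegf, at r = 0.68 and 0.86, were the closest pair among the ligands within the 15 lines, and Nrg1 and Egfr correlated at 0.63 and 0.53. C5N was the lowest of the 15 lines for both Ereg (3.43) and Hbegf (6.74). Within the 12 non-spindle lines Ereg and Hbegf correlated at r = 0.64. These are descriptions over lines that share an array type and, in part, a name family.

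Each gene was also set beside the 3 genes with the highest Pearson's r to it over the 26 lines among all genes tested. Ereg was most like Ptgs2, the inducible cyclooxygenase gene (r = 0.85), with C5N lowest for both, followed by Tmx4 (0.79) and Atp10a (0.78). For Hbegf they were Lpcat1 (0.80), the ERK phosphatase gene Dusp5 (0.79) and Slc20a2 (0.78). The desmosomal plakophilin gene Pkp3 (0.94) led for Tgfa, before Tns4 (0.93) and Cdcp1 (0.92). Erbb3 was most like Spint1, which encodes an inhibitor of epithelial serine proteases, Mpzl2 and Krtcap3 (each 0.96). Nearest to Erbb2 were Lypd3, Map7 and the epithelial splicing factor gene Esrp2 (each 0.93). Epgn was most like Gna15 (0.92), Nectin4 (0.92) and Bmp7 (0.91), but Spearman's rho was 0.62, 0.49 and 0.76 there, and the value rests on the 6 lines of high Epgn. For Nrg1 they were Epas1 (0.83), Zfp867 (0.82) and Cast (0.82), for Egfr App (0.80), Tmem43 (0.78) and Sdc1 (0.77), and for Btc Maats1 (0.68), St8sia4 (0.68) and Krt76 (0.65). Spearman's rho was only 0.43, 0.17 and 0.02 for the genes beside Btc, whose level in 2945CA (7.41) stood highest. It was 0.64, 0.34 and 0.62 for Ptgs2, Tmx4 and Atp10a beside Ereg. For the remaining genes, Epgn aside, rho was 0.71 to 0.93.

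For other members of the family the values are those of the probe set with the highest mean. Egf, Nrg3, Nrg4 and Erbb4 exceeded the array median on 0 of 26 arrays, the highest of their levels being 4.25, 3.57, 4.42 and 3.63, and Nrg2 stayed between 5.39 and 6.0. Another Nrg2 probe set ranged from 3.85 to 6.88 and exceeded the array median on 15 arrays. Areg was not analysed here.

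In the pathway around the receptors, 0 of 61 listed genes were called between spindle and non-spindle lines by limma, and 16 (26.2%) had an unadjusted p under 0.05, against 20.7% of all genes. Against keratinocyte lines 7 of 61 were called in spindle lines, where 5.35% of all genes were, and 6 of 61 in non-spindle lines, where 2.02% of all genes were. Of 12 genes for ligand shedding and trafficking, 1 rose in both comparisons with keratinocytes, the metalloprotease gene Adam9 (1.13 in spindle lines, SE 0.24, and 1.09 in non-spindle lines, SE 0.23, limma adjusted p = 0.00931 and 0.0115). Of 17 adaptors and proximal effectors, the docking protein gene Gab1 fell by 1.93 in spindle lines (SE 0.40) and by 1.95 in non-spindle lines (SE 0.38), with limma adjusted p-values of 0.00798 and 0.00811. Eps8, an EGF receptor substrate, rose in spindle lines (2.47, SE 0.72, limma adjusted p = 0.0498). Of 17 receptor inhibitors and turnover genes, Lrig1, which encodes a membrane protein that limits ErbB receptor levels, rose by 2.48 in spindle lines (SE 0.46) and by 2.31 in non-spindle lines (SE 0.44), with limma adjusted p-values of 0.00396 and 0.00628. Eps8 held its call in 1 of 9 fits without 1 line and differed by 1.19 without NK (limma adjusted p = 0.675). Without C5N the Gab1 differences were -1.17 and -1.19 (limma adjusted p = 0.234 and 0.352), and Adam9 was not called (limma adjusted p = 0.118 and 0.195), nor was it without NK (limma adjusted p = 0.054 and 0.0686). Lrig1 was not called without NK (limma adjusted p = 0.0999 and 0.172) or with the unclear lines placed by label, where it differed by 1.34 and 1.36 (limma adjusted p = 0.151 and 0.21). The median log2 differences of these 3 lists lay between -0.12 and 0.23 in both comparisons, beside 0.04 and 0.02 for all genes.

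Among 15 genes known to be induced by EGF receptor signalling through ERK, 3 rose in both comparisons with keratinocytes and 0 fell, while 2.4% of all genes were called higher in spindle and 0.886% in non-spindle lines. Fosl1, an AP-1 subunit gene, averaged 10.56 in spindle lines, 10.01 in non-spindle lines and 6.80 in keratinocyte lines, log2 differences of 3.76 (SE 0.52) and 3.21 (SE 0.50) from keratinocytes, at limma adjusted p-values of 0.000429 and 0.00151. Dusp4, an ERK phosphatase gene, was 2.15 and 2.3 higher (limma adjusted p = 0.0218 and 0.0161), and Etv5, an ETS factor gene, 1.96 and 1.83 higher (limma adjusted p = 0.0267 and 0.0491), in spindle and in non-spindle lines. Without C5N, Fosl1 was still called in spindle lines (3.07) but not in non-spindle lines (2.53, limma adjusted p = 0.0748). Dusp4 and Etv5 were called in neither comparison without C5N or without NK, at limma adjusted p-values of 0.0888 to 0.338, and Etv5 in non-spindle lines lost its call in 12 of 14 fits without 1 line. The medians of the 15 log2 differences were 0.42 and 0.58.

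Between spindle and non-spindle lines the largest differences in these lists, none called, were -1.86 for Adam12 (SE 0.64) and -1.22 for Adam8 (SE 0.71), both metalloproteases, and -0.95 for the tetraspanin gene Cd9 (SE 0.39). Among adaptors they were 1.10 for Gab2 (SE 0.46), 1.09 for Pik3r1 (SE 0.38) and 0.70 for Vav3 (SE 0.39). The receptor inhibitor gene Errfi1 differed by 0.98 (SE 0.39), Socs4 by 0.58 (SE 0.20) and Cblc by -0.47 (SE 0.19). Of the ERK-induced genes, Ier3 differed by -1.35 (SE 0.46), Dusp5 by -0.76 (SE 0.50) and Phlda1 by -0.69 (SE 0.30). The limma adjusted p-values of these 12 genes ranged from 0.131 to 0.395.

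The last comparison set the 6 non-spindle lines of Spretus crosses against the other 6, since a probe that mismatches a Spretus allele and a lower level cannot be told apart. None of the 9 genes was called by limma, nor was any gene (0% of all tested), while 1 of the 9 and 10.9% of all genes had an unadjusted p under 0.05. That 1 was Tgfa, at 3.81, 6.81 and 8.25 in Spretus-cross lines (lowest, median and highest) and 7.22, 8.22 and 9.61 in the others, a log2 difference of -1.74 (SE 0.77, limma adjusted p = 0.451). The Spretus-cross lines included MSC12, MSC11B and MSC7A, the 3 non-spindle lines with low Cdh1. Without them the Erbb3 difference was 0.65, against -1.48 with them, and the Erbb2 difference 0.13, against -0.45 with them. Tgfa was at 3.81 to 5.98 in MSC12, MSC11B and MSC7A. In the other Spretus-cross lines, MSCP5, MSCP1 and SN161, Tgfa was at 7.63, 8.18 and 8.25, within the range of the 6 lines they were set against.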

How the data were processed

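Transcripts were measured in 26 mouse skin lines on 1 array each. The deposited table holds log2 values that the authors made with RMA, per the submitters' processing notes; neither its version nor its probe set definitions is given in the sources used here. RMA gives all arrays near-equal distributions, which hides any difference in RNA content per cell, and it compresses differences near background. Values ran from 2.28 to 14.92 over 45037 probe sets, with 0 columns of other samples. A table of probe sets and genes gave 1 symbol for 34945, several for 932 and none here for 9160, and 34741 matched a current ID in RefSeq GRCm38.p6, which was used for names and for the promoter windows. The build of the probe annotation was not named.

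Groups were formed by cell type label and flags, and a line entered one only where both agreed. The group means of 21 lines were fitted in limma 3.58.1 (R 4.3.3, lmFit and eBayes), and Spretus crosses within the 12 non-spindle lines alone. P-values were adjusted by Benjamini-Hochberg over 12641 genes and called under 0.05. Precision is limited by how many arrays each group has. The fit was tested on simulated data.

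The 9 genes and all lists were chosen with earlier results of these data known. Named were every member, Cdh1, every called gene of the pathway lists and up to 3 further genes per list with the largest spindle against non-spindle difference, and the 3 genes most alike to each member. Alternatives changed the filter, the probe set, the variance model, the lines in the fit, the treatment of name families and unclear lines, and the array medians, and left out each line in turn.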

Additional observations from a re-analysis of the deposited data

Results flagged for a closer look

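In 27 sets of a gene and a group of 6 or 7 lines, 5 had 1 line standing apart by Dixon's test of the gap at the end of a range, which chance does in about 1 in 20. Tgfa in spindle lines was highest in D3 at 7.30, with the next line at 5.15. Epgn in spindle lines was highest in CarB at 6.38, with the next at 4.89. Epgn in non-spindle lines of Spretus crosses was highest in MSCP5 at 10.25, with the next at 4.61, and in the other non-spindle lines in B9 at 10.99, with the next at 5.97. Egfr in the Spretus-cross lines was highest in MSCP1 at 8.85, with the next at 7.76.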

How the results depend on the processing

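Of the differences of the 9 genes and the called pathway genes under all alternatives, 1023 kept their direction and side of the threshold, 27 passed it, 75 no longer did and 25 reversed. Causes were not tested. No paired analysis was made, because each line was measured on 1 array and stood in 1 group. Lines that share a name family were blocked or averaged in separate alternatives. For spindle against non-spindle lines 8 genes were called, against 3 with no filter, 47 with the stricter filter, 2 with name family as a random block, 179 with name families averaged, 0 by cell type label and 1954 without MSC12, MSC11B and MSC7A, and 2 to 471 without 1 line (471 without MSC11B, 183 without MSC7A, 179 without MSC12). Members called were 0, against 3 with families averaged (Tgfa, Erbb2 and Erbb3), 5 without those 3 lines, and 0 to 4 without 1 line. For non-spindle against keratinocyte lines 255 genes were called, against 111 with only the 2 groups fitted, 383 with families averaged and 147 (without C5N) to 352 without 1 line. Members called were 1, against 0 with only the 2 groups, 2 with families averaged, and 0 (without C5N) to 2 (without MSCP5 or B9) without 1 line. For spindle against keratinocyte lines 676 genes were called, against 1213 with only the 2 groups, 1252 with families averaged and 258 (without C5N) to 574 without 1 line, with 284 without NK. Members called were 3, against 5 with families averaged and 1 (without C5N, NK, A5, H11 or CarB) to 2 without 1 line. For Spretus crosses 0 genes were called, and 0 to 163 (without MSCP1) without 1 line.

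With only the 2 groups fitted, Ereg was not called against keratinocyte lines in spindle (limma adjusted p = 0.0697) or non-spindle lines (limma adjusted p = 0.0728), whereas Tgfa and Epgn were called in spindle lines (limma adjusted p = 0.0343 and 0.000257). With no filter Erbb3 was not called there (limma adjusted p = 0.0562). Etv5 in non-spindle and Eps8 in spindle lines lost their calls against keratinocytes under most alternatives, leaving out 1 line included, and by cell type label the calls of Gab1 in non-spindle lines (-1.33), Adam9 in spindle lines (0.77) and Lrig1 in both were lost.

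No reversed value was called. By cell type label, Btc became -0.03 in spindle against non-spindle lines and -0.09 for Spretus crosses. With families averaged, Ereg became 0.33 for Spretus crosses. Without MSC12, MSC11B and MSC7A, Tgfa became 0.04 in non-spindle against keratinocyte lines, and for Spretus crosses Ereg 0.15, Epgn 0.52, Nrg1 0.31, Erbb2 0.13 and Erbb3 0.65. On other probe sets, the flat Tgfa one gave 0.08 for spindle against non-spindle lines and 0.16 for Spretus crosses, and the second Erbb3 one gave 0.00 for the crosses. Of the 3 Egfr probe sets that did not follow the chosen one, one gave 0.08, 0.09 and 0.17 in the 3 main comparisons and -0.08 for the crosses, and another gave 0.37 and 0.15 in non-spindle and spindle lines against keratinocytes. Without 1 line the ranges that crossed 0 were, for Spretus crosses, -0.59 to 0.08 for Ereg (without B9), -1.48 to 0.51 for Epgn (without B9) and -0.11 to 0.36 for Egfr (without B9rassmad, or -0.08 without MSCP1). Nrg1 ran from -0.28 (without C5N) to 2.46 in non-spindle and from -1.88 to 0.86 (without NK) in spindle lines against keratinocytes, and Hbegf from -0.67 (without C5N) to 1.51 in spindle lines.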
